A study of Rattus norvegicus with 15 samples.

Results

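MiR-451 and miR-144 are microRNAs (miRNAs) of red blood cells, and their level in a nerve segment was followed as a measure of the blood it held. They were chosen by name, as the array entries rno-miR-451 and rno-miR-144, and are 2 of the 350 rat miRNAs on the array. The study profiled sciatic nerve of adult male rats on 15 one-colour arrays, with 3 arrays each for uninjured nerve (day 0) and for nerve taken 1, 4, 7 and 14 days after injury. No agent, transgene or strain is named for any group. The labels describe the injury both as a resection, with 0.5 cm of proximal nerve taken, and as a crush, with damaged sections of about 0.5 mm, and they name the samples both proximal stumps and injury site. Total RNA was labelled, and nothing in the labels says whether the 3 arrays of a group came from separate animals, so each p-value reflects only how far these samples spread, which may be technical.

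The genes of miR-144 and miR-451 lie side by side and are transcribed as one precursor, which the transcription factor GATA1 switches on in developing red cells, as shown in mouse and zebrafish. MiR-451 is cut by the Argonaute protein AGO2 rather than by Dicer, so its mature form runs from the stem of the hairpin into the loop, whereas miR-144 is made by Dicer in the usual way. In mouse, miR-451 represses Ywhaz, which codes for an adaptor protein, and helps red cell precursors survive oxidative stress. Peripheral nerve carries blood vessels between its fibres, so some red cells are part of any nerve sample that was not flushed.

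The mature sequences below are those of RefSeq on the rat assembly GRCr8, with the seed, bases 2 to 8, in capitals, because the seed decides which relatives share targets. The array uses older names without an arm, taken here as the arms that RefSeq calls miR-451-5p and miR-144-3p. MiR-101a is shown as a close seed relative of miR-144.
rno-miR-451-5p: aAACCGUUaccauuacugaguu
rno-miR-144-3p: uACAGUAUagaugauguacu
rno-miR-101a-3p: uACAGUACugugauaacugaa
The 2 members have unlike seeds, which match at 2 of 7 positions. Among 693 rat mature miRNA names each member's seed occurred in 1, its own. The seed of miR-101a matches that of miR-144 at 6 of 7 positions.

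The hairpins are given because they show the neighbouring genes and the different cutting, with the mature arm in capitals. Mir144 lies on the plus strand of GRCr8 at chr10:63459397-63459479, and Mir451a follows it on the same strand at chr10:63459569-63459640.
Mir144 hairpin: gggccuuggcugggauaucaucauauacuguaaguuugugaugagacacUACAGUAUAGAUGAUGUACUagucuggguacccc
Mir451a hairpin: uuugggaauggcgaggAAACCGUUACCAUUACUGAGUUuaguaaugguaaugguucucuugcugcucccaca
A gap of 89 bases separates the hairpins, and the nearest other gene, Eral1, lies 133 bases away. Mature miR-451 takes bases 17 to 38 of its 72-base hairpin, and so spans its middle. Mature miR-144 takes bases 50 to 69 of 83, on the 3′ arm.

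Array signal was clear for miR-451 and low for miR-144. Levels are given below as scaled levels, the log2 of background-subtracted intensity after each array was divided by its own 75th percentile, and as the raw intensity where named. Each member is read by 2 probes of 10 spots each. All 150 spots of each miR-451 probe stood well above background, and its probes followed each other over the 15 arrays (r = 0.99975). For miR-144 the brighter probe was above background in 140 of 150 spots, and the dimmer one in 51 of 150. MiR-451 was detected on all 15 arrays and miR-144 on 14, the exception being day 14 replicate 3. That array stood apart: it had 172 miRNAs detected, against 200 to 239 on the others, and negative controls averaging -8.54 in intensity. Arrays lay on 5 slides scanned on 4 days, with day 0, day 1 and day 4 each on a slide of its own, so slide and day cannot be told apart for these groups. Day 0 and day 1 also each had a scan day of their own. Day 14 replicate 3 was alone on its slide and on its scan day, so what sets this array apart cannot be told from either.

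MiR-451 was highest on day 1 and lowest, with the tightest spread, on day 14. Its scaled level was 1.94, 1.65 and -0.52 on the 3 day 0 arrays, 1.57, 2.80 and 3.20 on day 1, 1.85, 1.38 and 0.74 on day 4, 0.08, 0.64 and 1.35 on day 7, and 0.27, 0.41 and 0.20 on day 14. Day 0 replicate 3 lay below all other arrays, and day 1 replicates 2 and 3 lay above all others. In raw intensity, the day 0 arrays read 2444, 1900 and 427, and the day 1 arrays 1741, 3908 and 4913. The lowest and the highest array differed 13.2-fold in scaled level. Its share of an array's total miRNA signal ran over the same arrays, with 0.219% at the lowest and 3.86% at the highest.

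MiR-144 was also highest on day 1 and lowest on day 14, at a low signal. Its scaled level was -2.75, -3.09 and -4.76 on day 0, -3.86, -2.19 and -1.67 on day 1, -3.45, -4.04 and -4.48 on day 4, -5.17, -4.84 and -4.07 on day 7, and -5.09, -4.55 and -5.60 on day 14, the last of these not detected. In 5 of 5 groups the 3 arrays stood in the same order as for miR-451. Raw intensity of miR-144 was 94.7, 70.9 and 22.5 on day 0, and 40.4, 123 and 167 on day 1. From day 4 on, it lay between 18.3 and 52.1. Over the 14 arrays that detected it, the lowest and the highest differed 11.3-fold in scaled level.

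**Figure D1:**
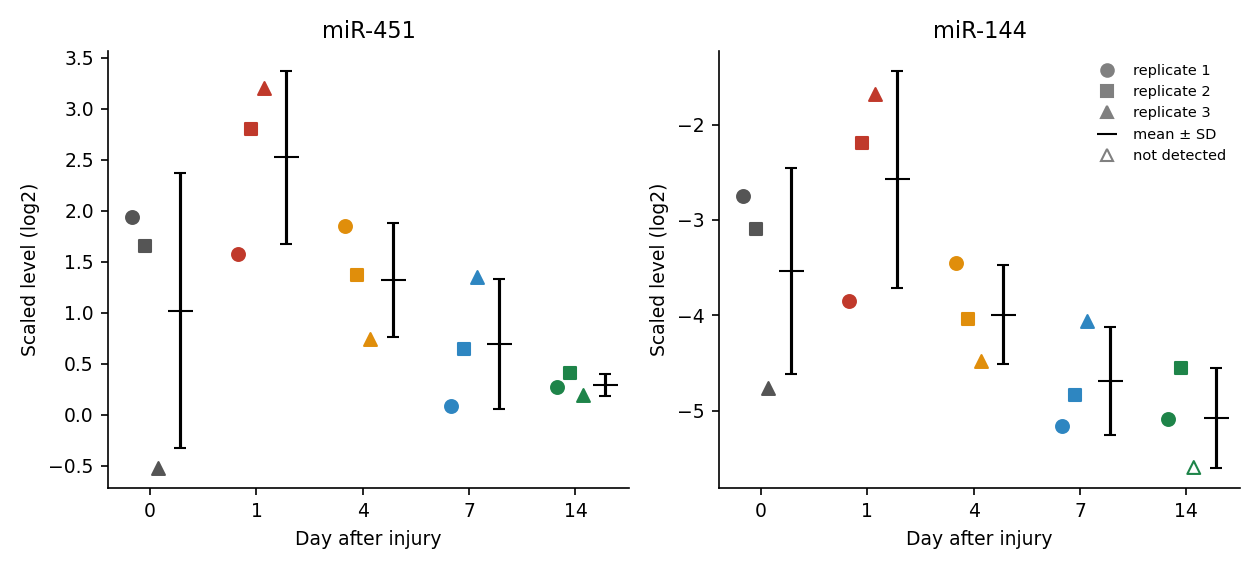
Scaled level (log2) of miR-451 (left) and miR-144 (right) by day after injury. Each symbol is 1 array, its shape the replicate number, and bars show the mean ± SD of 3 arrays; an open symbol was not detected. Day 0 replicate 3 lies far below the other day 0 arrays for both miRNAs.

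The groups' means gave the same order for both miRNAs except for day 0. MiR-451 averaged 1.02 ± 1.34 on day 0, 2.52 ± 0.85 on day 1, 1.32 ± 0.56 on day 4, 0.69 ± 0.64 on day 7 and 0.29 ± 0.11 on day 14 (log2 scaled level, SD, n = 3 each). From high to low its order was therefore day 1, 4, 0, 7 and 14. MiR-144 averaged -3.54 ± 1.08 on day 0, -2.57 ± 1.14 on day 1, -3.99 ± 0.52 on day 4, -4.69 ± 0.57 on day 7 and -5.08 ± 0.52 on day 14 (log2 scaled level, SD, n = 3 each, with the day 14 array that did not detect it included). Its order was day 1, 0, 4, 7 and 14. The means of the 5 groups differed for both in limma's F test with Benjamini-Hochberg adjustment over 231 tested miRNAs (adjusted p = 0.0218 for miR-451 and 0.00834 for miR-144). The same test called 86.1% of all tested miRNAs, so passing it does not set these members apart. For miR-451 the F test was lost without day 1 replicate 2 (adjusted p = 0.0867) or replicate 3 (0.110), with no scaling (0.0714) and with no detection filter (0.0777). For miR-144 it was lost in the authors' deposited table (adjusted p = 0.0561).

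On day 1, miR-451 rose against day 0, by 1.50 ± 0.58 on the log2 scale (SE, 95% interval 0.26 to 2.74), or 2.83-fold, with adjusted p = 0.0365 in limma. MiR-144 was higher by 0.96 ± 0.58 and did not pass (adjusted p = 0.167). Of all tested miRNAs, 16.9% were called higher in this comparison and 60.6% changed in either direction, against 1 of the 2 members. For both members the day 1 and day 0 arrays overlapped, whereas those of 53.7% of the tested miRNAs did not: day 1 replicate 1 lay below day 0 replicates 1 and 2. The call for miR-451 rested on single arrays. It was 0.73 without day 0 replicate 3 (adjusted p = 0.178), 1.37 without day 1 replicate 2 (0.0948) and 1.16 without day 1 replicate 3 (0.150). It was also lost with the software's total signal per miRNA (adjusted p = 0.0568) and with no detection filter (0.0868). Without day 1 replicate 1, in turn, miR-144 passed, at 1.60 (adjusted p = 0.0253).

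On days 4 and 7 neither member differed from day 0 beyond the spread, in comparisons where 65.8% and 62.8% of the tested miRNAs were called. MiR-451 differed by 0.30 on day 4 (SE 0.58, adjusted p = 0.644) and by -0.33 on day 7 (adjusted p = 0.614). The 95% intervals were wide, at -0.94 to 1.54 and -1.57 to 0.91. The day 7 value was above 0 under 3 other scalings, at 0.033 with the percentile over all miRNAs, 0.078 with quantile normalization and 0.11 in the authors' deposited table. MiR-144 differed by -0.46 on day 4 (SE 0.58, adjusted p = 0.503) and by -1.15 on day 7 (adjusted p = 0.0975). Single day 0 arrays decided these values. Without replicate 1, miR-451 differed by 0.76 on day 4 and 0.13 on day 7, and miR-144 by -0.065 and -0.76, none of which passed (adjusted p = 0.284 to 0.946). Without replicate 3, miR-451 differed by -0.47 on day 4 (adjusted p = 0.369) and fell by 1.10 on day 7 (adjusted p = 0.0479), and miR-144 fell by 1.77 on day 7 (adjusted p = 0.0129).

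On day 14, miR-144 fell against day 0, by 1.54 ± 0.58 (95% interval -2.79 to -0.29), or 2.91-fold, with adjusted p = 0.0305 in limma. MiR-451 differed by -0.73 ± 0.58 (interval -1.97 to 0.51), which did not pass (adjusted p = 0.281). Here 50.6% of all tested miRNAs were called lower and 66.7% changed in either direction, so 1 call among 2 members is no more than that share. The arrays overlapped for both members, whereas those of 62.8% of the tested miRNAs did not, since day 0 replicate 3 lay within or below the day 14 arrays. The fall of miR-144 was lost without any one of day 0 replicates 1 and 2 (adjusted p = 0.120 and 0.0949) or day 14 replicates 1 and 3 (0.0656 and 0.131). It was also lost under 3 other scalings (-1.18 to -1.16, adjusted p = 0.0961 to 0.108), in the authors' deposited table (adjusted p = 0.0563) and with no detection filter (0.0833). Without day 0 replicate 3, miR-451 fell by 1.50 (adjusted p = 0.0113). The 4 comparisons with day 0 share the same 3 arrays. The median tested miRNA was itself lower than on day 0, by -0.26 on days 1 and 4, -0.32 on day 7 and -0.37 on day 14. That shift depended on the arrays and the scaling. Without day 14 replicate 3 it was -0.04 on day 1, -0.11 on day 4, -0.16 on day 7 and -0.26 on day 14. In the authors' deposited table it lay between -0.12 and -0.05.

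Against day 1, both members fell on days 7 and 14. On day 14, miR-451 fell by 2.23 ± 0.58 (95% interval -3.47 to -0.99), or 4.70-fold (adjusted p = 0.00497), and miR-144 by 2.51 ± 0.58 (interval -3.76 to -1.25), or 5.68-fold (adjusted p = 0.00247). All 3 day 14 arrays lay below all 3 day 1 arrays for both, a separation in one direction or the other that 54.5% of the tested miRNAs showed. The calls were 2 of 2, against 31.2% called lower and 55.4% in either direction. These falls passed in 15 of 15 fits that left out 1 array and in all 12 of the other settings tried. Among these settings, slide as a random block cannot separate slide from day, since day 1 had a slide of its own. The size for miR-144 depended on the setting: -1.32 with normexp on the median signals and -3.66 in the authors' deposited table. On day 7 it was -1.10 with normexp. On day 7, miR-451 fell by 1.83 ± 0.58, or 3.56-fold (adjusted p = 0.0157), and miR-144 by 2.12 ± 0.58, or 4.34-fold (adjusted p = 0.00753). The day 7 and day 1 arrays did not overlap for either, as for 72.3% of the tested miRNAs. Of these 231, 31.6% were called lower and 58% in either direction. For miR-451 the day 7 call was lost without day 1 replicate 3 (-1.49, adjusted p = 0.0701) or day 7 replicate 1 (-1.53, adjusted p = 0.0662). For miR-144 it was lost in the authors' deposited table (adjusted p = 0.0652) and with the total signal per miRNA (0.0566).

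On day 4 the difference from day 1 was -1.20 for miR-451 and -1.42 for miR-144 (SE 0.58 each), and neither passed (adjusted p = 0.0943 and 0.0540), where 23.8% of the tested miRNAs were called lower and 51.5% in either direction. Both passed without day 1 replicate 1, at -1.68 (adjusted p = 0.0374) and -2.06 (0.00890), and without day 0 replicate 3, at -1.20 (0.0236) and -1.42 (0.0267). The SE rests on a spread pooled over all 5 groups, so arrays outside the 2 days compared bear on the call. MiR-144 also passed without day 0 replicate 1 (-1.42, adjusted p = 0.0470) or day 14 replicate 3 (-1.48, adjusted p = 0.0425), and with quantile normalization, no scaling, normexp on the median signals or slide as a random block (adjusted p = 0.0239 to 0.0467). Slide as a random block cannot separate slide from day here, since day 1 and day 4 each had a slide of their own. The comparisons with day 1 share its 3 arrays. Neighbouring times after day 4 did not differ beyond their spread for either member. The change was -0.63 for miR-451 and -0.70 for miR-144 between day 7 and day 4 (adjusted p = 0.538 and 0.496), where 6.06% of the tested miRNAs were called. It was -0.40 and -0.39 between day 14 and day 7 (adjusted p = 0.670 and 0.680), where 13.9% were called. On the slide that held day 7 and 2 of the day 14 arrays, the day 14 minus day 7 difference was -0.35 for miR-451 (adjusted p = 0.549) and -0.13 for miR-144 (adjusted p = 0.838). Day 14 against day 4 gave -1.03 and -1.09 (adjusted p = 0.182 and 0.164), with all day 14 arrays below all day 4 arrays for both, as 51.5% of the tested miRNAs did not overlap and 38.5% were called.

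**Figure D2:**
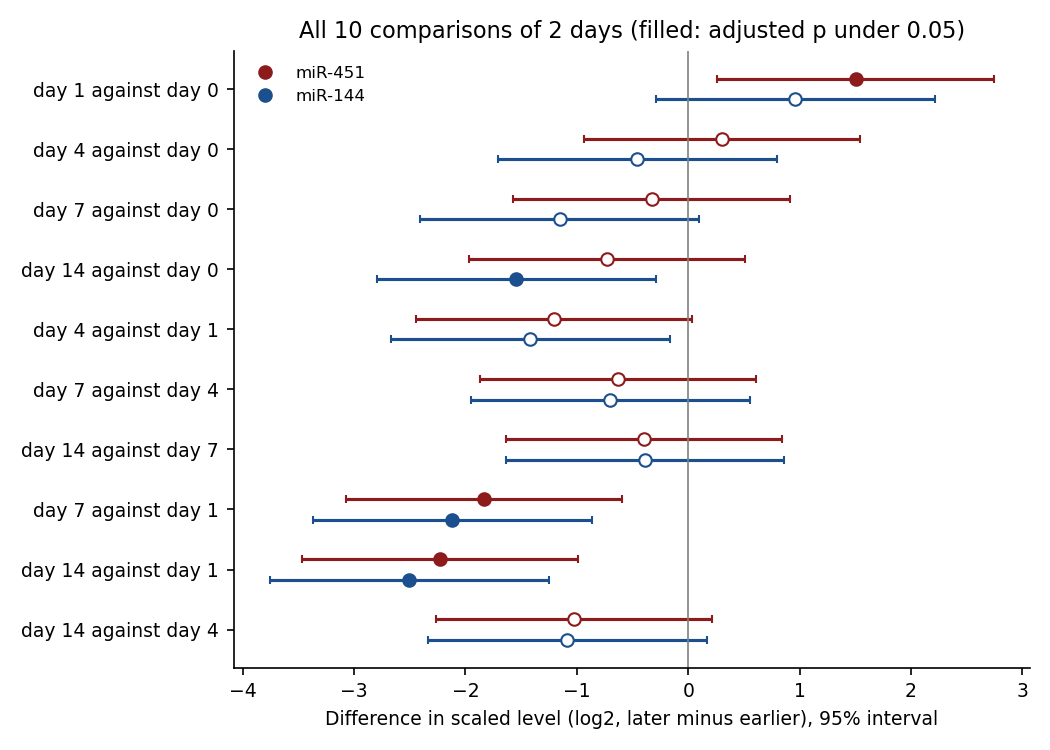
Difference in scaled level (log2, later minus earlier day) with its 95% interval for miR-451 (red) and miR-144 (blue) in each of the 10 comparisons. Filled points passed an adjusted p of 0.05 in limma; the 4 filled points below 0 against day 1 are days 7 and 14 for both miRNAs.

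The arrays of one group differed more in these 2 miRNAs than in nearly all others. The pooled SD between arrays of a group was 0.815 for miR-144 and 0.807 for miR-451 (log2), ranks 5 and 6 of 231, against a median of 0.160. The 4 ranks above them were miRNAs of striated muscle: miR-206 (1.38), miR-1 (1.35), miR-133b (1.25) and miR-133a (1.01). The spread was large among the day 0 arrays too. On day 0 the highest miR-451 array was 5.49-fold above the lowest, on day 1 3.10-fold, on day 4 2.16-fold, on day 7 2.41-fold and on day 14 1.16-fold. The corresponding ranks of the SD of miR-451 were 5, 3, 2, 4 and 187 of 231, so its day 14 arrays were ordinary in spread. MiR-144 had ranks 8, 1, 3, 5 and 19.

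**Figure D3:**
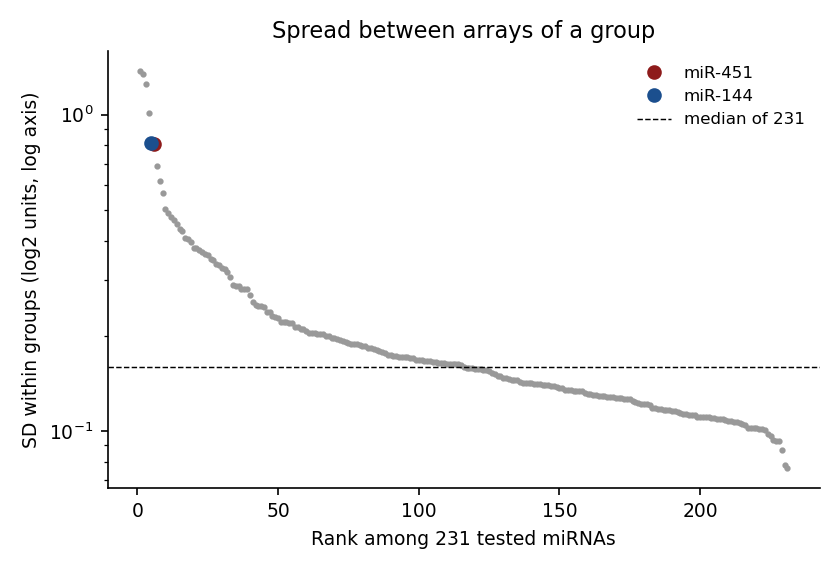
SD between arrays of a group, pooled over 5 groups (log2 units, log axis), for 231 tested miRNAs ranked from the largest. MiR-144 and miR-451 have ranks 5 and 6, and the dashed line marks the median of 0.160.

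The 2 miRNAs moved together from array to array. Over the 15 arrays their scaled levels had Pearson's r = 0.939 and Spearman's rho = 0.95, each with p = 1e-05 in a two-sided permutation test, the smallest that 100000 permutations can give, and an adjusted p of 7e-05 over the 7 pairs computed. Without the 2 arrays farthest from the median of miR-451, day 0 replicate 3 and day 1 replicate 3, r was 0.962 (n = 13). The lowest of 9 other settings was the authors' deposited table, with r = 0.786 (permutation p = 0.00061). Taken as deviations from each group's mean, r was 0.945. Within the 1 scan day that held 8 arrays, of days 4, 7 and 14, r was 0.964 and rho 0.976 (two-sided exact permutation p = 0.000843 and 0.000397), and r was 0.908 without the 2 farthest of these arrays; the other scan days held 3 arrays or fewer. Both values of an array share its RNA, labelling and scaling.

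**Figure D4:**
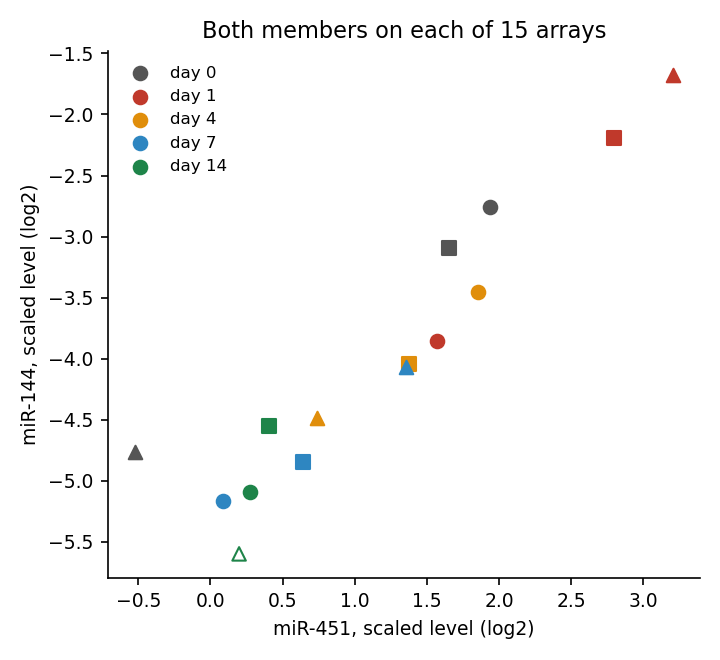
Scaled level (log2) of miR-144 against that of miR-451 on each of 15 arrays, coloured by day, with the replicate number as shape. The points lie near a line (r = 0.939), and the open point was not detected for miR-144.

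The other 6 pairs had lower coefficients. With miR-451, r was 0.56 for miR-223, a miRNA of neutrophils and other myeloid cells (permutation p = 0.0294, adjusted 0.103; rho = 0.48), but 0.31 without the 2 farthest arrays and -0.24 as deviations from group means. It was 0.35 for miR-1 of muscle (adjusted p = 0.458), and between -0.20 and -0.11 for miR-16, miR-142-3p, miR-126 and miR-338 (adjusted p = 0.649 to 0.696). Without the 2 farthest arrays, miR-142-3p was at -0.66 and miR-338 at 0.36. Of 163 miRNAs detected on all 15 arrays, those most like miR-451 in level were miR-182 (r = 0.69), miR-145 (0.68), miR-378 (0.65), miR-341 (0.63) and miR-124 (0.63), where the median r was -0.08. Those most like miR-144 were miR-451 itself, miR-145 (0.80), miR-128 (0.78), miR-182 (0.77) and miR-185 (0.76). These are descriptions, and all values of an array share its RNA, labelling and scaling. As deviations from group means, miR-182 had r = -0.02 with miR-451 and miR-145 had 0.08, and the highest were miR-15b (0.62) and miR-128 (0.47).

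The difference between miR-144 and miR-451 within an array needs no scaling between arrays, and it was lower on the injured arrays than on any day 0 array. Probes of different miRNAs bind differently, so only its change between arrays can be read. On the log2 scale it was -4.69, -4.74 and -4.24 on the day 0 arrays, and on the injured arrays -5.43, -4.99 and -4.88 on day 1, -5.31, -5.42 and -5.22 on day 4, -5.25, -5.48 and -5.42 on day 7, and -5.36, -4.96 and -5.80 on day 14. The value of -5.80, on day 14 replicate 3, rests on a miR-144 signal not well above background. All 11 injured arrays that detected miR-144 lay below the lowest day 0 array. With the brighter probe of each miRNA alone, these injured arrays lay between -5.21 and -4.67 and the day 0 arrays between -4.54 and -4.02, again with no overlap. The mean was -5.10 ± 0.29 on day 1, -5.32 ± 0.10 on day 4, -5.38 ± 0.12 on day 7 and -5.37 ± 0.42 on day 14, against -4.56 ± 0.27 on day 0 (SD, n = 3 each, with the array that did not detect miR-144 included on day 14). This quantity was chosen after its values were seen and has no test. How many other pairs of miRNAs separate in this way was not computed. For single miRNAs and single days, day 0 did not overlap day 1 for 53.7% of the tested miRNAs, nor day 14 for 62.8%. The day 0 arrays share a slide of their own, which cannot be told apart from the lack of injury.

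**Figure D5:**
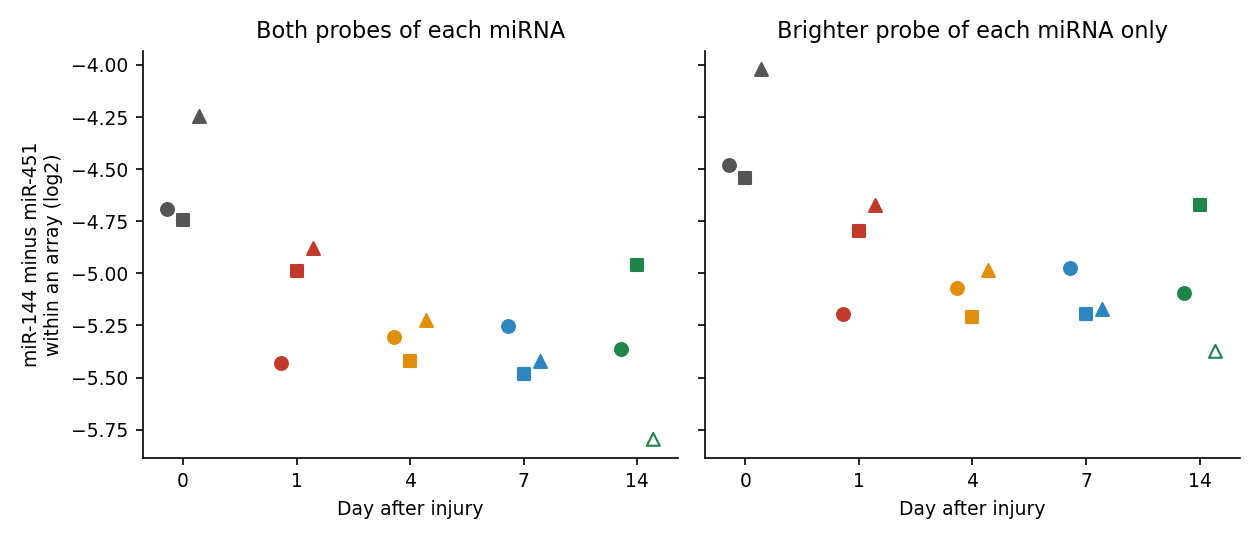
MiR-144 minus miR-451 within each array (log2) by day after injury, with both probes of each miRNA (left) and with its brighter probe alone (right). The 3 day 0 arrays lie above the 11 injured arrays that detected miR-144 in both panels; the open symbol was not detected.

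Of 6 other listed red cell miRNAs on the array (miR-16, miR-15b, miR-92a, miR-25, miR-363 and miR-185), which nerve and other tissues also express, 0 were called higher on day 1 than on day 0 and 1 lower (miR-363, which fell by 0.41, adjusted p = 0.0199), against 16.9% and 43.7% of all tested miRNAs. Their median change was 0.05, against -0.26 for all tested miRNAs. On day 14 against day 1, where both members fell, 2 of the 6 were higher (miR-15b by 0.42, adjusted p = 0.00383, and miR-25 by 0.31, 0.0495) and 1 lower (miR-185, -0.63, 0.00182), against 24.2% and 31.2% of all tested miRNAs. Their summed scaled level, on the linear scale, ranged over 10.7 to 12.8 on day 0, 9.30 to 11.4 on day 1, 10.7 to 11.1 on day 4, 10.6 to 11.2 on day 7 and 11.1 to 13.0 on day 14. MiR-486, the other abundant red cell miRNA, was listed too but was not found by that name on the array, so it was not analysed here. In bulk nerve, a change in the number of blood cells and a change in miRNA per cell cannot be told apart, and blood content was not measured by any other means.

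Markers of other cells moved with day as well, and their part in the results above was not tested. Of 5 listed leukocyte miRNAs, 3 were higher on day 1 than on day 0 and 0 lower, against 16.9% and 43.7% of all tested miRNAs, led by miR-223, which rose by 1.79 ± 0.16 (adjusted p = 1.72e-06); their summed level was 3.17 to 4.26 on day 1, against 1.62 to 1.92 on day 0. On day 14 their summed level was 2.20 to 2.81. Of the 5, 2 were lower and 2 higher on day 14 than on day 1, against 31.2% and 24.2% of all tested miRNAs. MiR-223 was lower by -1.58 (adjusted p = 4.33e-06) and miR-150 by -0.60 (0.00066), while miR-342-3p was higher by 0.48 (0.00235). Of 5 muscle miRNAs, 0 were higher and 1 lower on day 1 than on day 0, against 16.9% and 43.7% of all tested miRNAs. The lower one was miR-499, which fell by 0.58 (adjusted p = 0.0126). Their summed level ran over 1.66 to 3.96 on day 1 against 0.738 to 16.3 on day 0. On day 7 against day 1, where both members fell, 4 of the 5 were lower (miR-1 by -2.65, adjusted p = 0.0308, miR-133b by -2.53, 0.0271, and miR-499 by -0.79, 0.00245, among them), against 31.6% of all tested miRNAs. On day 4 against day 1, 3 of the 5 were lower, against 23.8%. On day 14 against day 1, where both members also fell, 1 of the 5 was lower (miR-499 by -0.93, adjusted p = 0.000802), against 31.2%. MiR-1 differed there by -0.80 and did not pass (adjusted p = 0.479). The summed level of the muscle miRNAs was 0.452 to 0.560 on day 4, 0.270 to 0.849 on day 7 and 0.881 to 2.23 on day 14. Both endothelial miRNAs fell on day 1 against day 0, miR-126 by -0.45 (adjusted p = 0.00207) and miR-126* by -0.77 (3.14e-05), where 43.7% of all tested miRNAs were called lower. Of 4 tested miRNAs of myelinating glia, 3 fell on day 1, against the same 43.7%, among them miR-338, which fell by 0.83 (adjusted p = 0.000764). MiR-122, abundant in liver and found in plasma, was not detected on any of the 15 arrays.

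Of miR-101a, miR-101b and miR-199a-3p, listed as seed relatives of miR-144, 0 were higher on day 1 than on day 0 and 2 lower: miR-101a fell by 0.80 ± 0.12 (adjusted p = 0.000146) and miR-199a-3p fell by 0.80 ± 0.10 (2.85e-05). Over all tested miRNAs, 16.9% were called higher and 43.7% lower. On day 14 against day 1, all 3 were higher (miR-101a by 0.43, adjusted p = 0.0101), where miR-144 fell by 2.51 and 24.2% of all tested miRNAs were called higher. On day 14 against day 0, where miR-144 fell by 1.54, miR-101a fell by 0.37 (adjusted p = 0.0184) and the other 2 did not pass (adjusted p = 0.174 and 0.793). In that comparison 50.6% of all tested miRNAs were called lower. Their median change was -0.37, the same as that of miR-101a. Compared position by position, the seed of miR-199a-3p matches that of miR-144 at only 1 of 7 positions, fewer than that of miR-451. The opening bases of miR-199a-3p, ACAGUA, also open the seed of miR-144, so the likeness is shifted by 1 base.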

How the data were processed

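The members and all 7 miRNA lists were chosen with earlier results of these data known. Per the file headers, the authors' array files came from Agilent Feature Extraction, version 10.7.3.1, and hold the intensity of each spot after background subtraction, unscaled between arrays. The authors' deposited series table holds log2 values, judged from their range, and served as an alternative. Other steps were not given in the sources used here.

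Control and outlier spots were left out, and the rest were averaged per probe and then per miRNA. Scaling divided an array by the 75th percentile of its 164 miRNAs that were detected throughout the series. Lower values were raised to a floor of 0.00362 (log2 -8.11) before taking log2. A miRNA was tested where all 3 arrays of some group detected it, which left 231. They were fitted in limma 3.58.1 (R 4.3.3) as 5 group means, two-sided, with 10 residual and 3.28 prior degrees of freedom, and Benjamini-Hochberg adjusted over the 231 within each of 10 comparisons, at a threshold of 0.05. Tables used Python 3.11.15, pandas 2.3.3 and matplotlib 3.10.9. The limma step was tested on simulated data.

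Named beside the members were the 5 miRNAs most correlated with each and, per list, up to 3 members with the smallest adjusted p. Deviations from the group means had r from -0.78 to 0.59 between arrays of the same replicate number in different groups. With 3 arrays a group this cannot decide whether the numbers pair samples, and the main fit did not pair them. Precision is limited by 3 arrays per group and by signal over background, which is low for miR-144. Alternatives covered scaling, value source, spot summary, background correction, detection filter, floor, probe, slide, replicate number and each array left out. Normexp used the median signals, since the files hold no mean signal, a choice made after seeing the data.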

Additional observations from a re-analysis of the deposited data

How the results depend on the processing

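Each comparison was recomputed under 12 other settings (13 for day 14 against day 7) and with each of the 15 arrays left out. Of these 542 values, 504 kept direction and call, 19 lost the call, 14 gained it and 5 turned direction. Of 54 recomputed F tests 5 lost the call, and all 10 recomputed correlations kept it. The median change of all tested miRNAs against day 0 lay between -0.37 and -0.26, but between -0.08 and 0.05 when the percentile was taken over all miRNAs, so small changes depend on the scaling. Between day 7 and day 0, miR-451 (-0.33) turned to 0.033 with the percentile over all miRNAs, to 0.078 with quantile normalization and to 0.11 in the deposited table.

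For miR-144, the day 14 against day 0 fall was lost with the percentile over all miRNAs (-1.18), quantile normalization (-1.17), no scaling (-1.16), the deposited table (-2.56) and no detection filter (-1.54). Its day 7 against day 1 fall was lost in the deposited table (-2.46) and with the total signal (-2.18), and its F test in the deposited table (adjusted p = 0.0561). Its day 4 against day 1 fall passed with quantile normalization (-1.50), no scaling (-1.43), normexp on median signals (-0.77) and slide as a random block (-1.42). The slide block cannot separate slide from day in that comparison. For miR-451, the day 1 against day 0 rise (1.50) was lost with the total signal and with no detection filter, and with the replicate block (1.50, adjusted p = 0.0527), which changed no other call. Its F test was lost with no scaling (0.0714) and no filter (0.0777).

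With 1 array left out, miR-451 ranged over 0.73 to 1.98 for day 1 against day 0, -0.47 to 0.76 for day 4, -1.10 to 0.13 for day 7 and -1.50 to -0.27 for day 14. Against day 1 it ranged over -1.68 to -0.86 for day 4 and -2.31 to -1.49 for day 7, and its F test over an adjusted p of 0.00168 to 0.110. MiR-144 ranged over 0.35 to 1.60 for day 1 against day 0, -1.77 to -0.76 for day 7, -2.16 to -1.15 for day 14, and -2.06 to -0.97 for day 4 against day 1. The causes were not tested. Low signal limits miR-144, which 1 probe read above background in 51 of 150 spots.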
